A study of Mus musculus with 4 samples.

Results

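The 10 genes described here are immediate early genes, the genes that a cell switches on first after a signal, without making new protein. They are Egr1, Egr2 and Egr3 of the EGR family, Nr4a1, Nr4a2 and Nr4a3 of the NR4A family, and Ier2, Ier3, Myc and Trib1. The members were chosen by gene symbol after their signals on these same arrays had been seen, so their values describe the arrays and no test is made with them. Their symbols covered 20 of the 45037 probe sets on the array (short oligonucleotide groups that each read 1 transcript region) and 10 of 18193 genes. Every value is a MAS5 signal, a linear fluorescence intensity of 1 probe set on 1 array.

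RNA came from bone marrow-derived dendritic cells (BMDC) of male C57BL/6 mice aged 6 to 8 weeks, under 4 conditions with 1 array each. In the live coculture, BMDC were kept with non-irradiated 1D8, a line from mouse ovarian surface epithelium that the labels call tumour cells, at 1 tumour cell to 5 BMDC. A dose of 50 Gy had been given to 1D8 before the irradiated coculture. The conditioned medium sample held BMDC with 25% (v/v) supernatant of 1D8 cells. Control BMDC had no contact with 1D8 cells or their medium. All 4 samples shared 7 days of growth with GM-CSF at 500 U/ml, the growth factor that drives marrow progenitors towards dendritic cells, and a flow sort on CD80, a costimulatory surface protein. The length of the coculture, the time from sort to lysis and whether animals were pooled are not given in the sources used here.

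EGR proteins are zinc finger transcription factors that bind GC-rich sites and are induced through ERK kinases and serum response factor (SRF), which binds the CArG box. NR4A proteins are orphan nuclear receptors that are governed mainly by how much of them is made, and their genes are known to respond to cyclic AMP and calcium through CREB, which binds the cyclic AMP response element. In macrophages and dendritic cells both families respond within minutes to Toll-like receptor ligands, growth factors and adhesion, and also to the handling of cells. Myc drives ribosome synthesis and growth, and Trib1 is a pseudokinase that brings the ubiquitin ligase COP1 to the myeloid transcription factor C/EBPα.

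The 4 arrays had been brought to a common scale, with a 2% trimmed mean signal of 150. The floor, below which a signal counts as not above background here, was 44.3, the 50th percentile of all signals. On the control array 58.8% of genes exceeded it, and on the treated arrays between 61.8% and 62.5%. The median signal was 38.7 in the control and between 45.3 and 46.8 on the treated arrays. As a gauge of RNA integrity, the signal at the 3′ end of Actb divided by that at its 5′ end was 1.14, 1.12 and 1.20 on the live coculture, irradiated coculture and conditioned medium arrays and 1.30 on the control array. For Gapdh it was 0.81, 0.80 and 0.79 on the treated arrays in that order and 0.88 on the control array. All 10 dendritic cell markers and all 6 markers of monocytes and macrophages were above the floor on all 4 arrays. The dendritic cell markers Flt3 and Zbtb46 were close to it, with 45.5 and 56.1 in the control. Of the 4 measured markers of T, B and NK cells, 1 or 2 per array were above it. With 1 array per condition no error can be computed, so no p-value or standard error is printed, and higher and lower refer to these arrays alone. As a scale for disagreement between probe sets, the log2 ratios of the 2 brightest probe sets of a gene were compared. They differed by less than 1.30 in 95% of 4270 genes for the live coculture against the control. For the irradiated against the live coculture they differed by less than 0.68 in 95% of 4603 genes. Both probe sets read the same samples, so this scale leaves out variation between samples and between arrays.

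Promoter sequences allow the 3 NR4A genes to be compared at the letters CREB is known to bind, and Egr2 at the CArG box. In the cocultures the signals of the 3 NR4A genes differed from the control in opposite directions. Each window runs from 250 bases before to 50 bases after a RefSeq transcript start, 5′ to 3′ along the gene, in assembly GRCm38.p6. Windows were examined for 5 of the 10 genes, Egr2, Nr4a1, Nr4a2, Nr4a3 and Ier3. The promoters of the other members were not examined, so nothing is said about their motifs. Capitals mark TGACG on either strand (read as CGTCA on the other), the core of the cyclic AMP response element, and the CArG box.
Nr4a1, chr15:101266596-101266895, plus strand: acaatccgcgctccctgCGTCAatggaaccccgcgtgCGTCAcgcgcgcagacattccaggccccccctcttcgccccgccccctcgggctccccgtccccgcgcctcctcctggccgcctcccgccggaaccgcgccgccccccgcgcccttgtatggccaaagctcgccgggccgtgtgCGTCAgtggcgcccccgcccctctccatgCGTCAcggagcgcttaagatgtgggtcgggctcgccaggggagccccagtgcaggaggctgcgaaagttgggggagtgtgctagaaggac
Nr4a2, chr2:57123954-57124253, minus strand: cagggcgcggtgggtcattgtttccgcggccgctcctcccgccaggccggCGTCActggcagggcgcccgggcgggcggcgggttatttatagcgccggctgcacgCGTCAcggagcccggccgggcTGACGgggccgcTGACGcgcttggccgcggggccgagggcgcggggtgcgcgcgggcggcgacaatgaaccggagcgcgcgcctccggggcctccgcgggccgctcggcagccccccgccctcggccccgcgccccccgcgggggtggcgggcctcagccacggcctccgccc
Nr4a3, chr4:48045055-48045354, plus strand: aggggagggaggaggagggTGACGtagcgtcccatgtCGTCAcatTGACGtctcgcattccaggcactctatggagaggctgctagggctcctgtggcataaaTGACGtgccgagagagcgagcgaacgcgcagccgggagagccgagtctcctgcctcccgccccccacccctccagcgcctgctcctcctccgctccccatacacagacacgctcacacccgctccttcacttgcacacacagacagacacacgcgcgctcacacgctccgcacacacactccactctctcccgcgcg
Egr2, chr10:67537619-67537918, plus strand: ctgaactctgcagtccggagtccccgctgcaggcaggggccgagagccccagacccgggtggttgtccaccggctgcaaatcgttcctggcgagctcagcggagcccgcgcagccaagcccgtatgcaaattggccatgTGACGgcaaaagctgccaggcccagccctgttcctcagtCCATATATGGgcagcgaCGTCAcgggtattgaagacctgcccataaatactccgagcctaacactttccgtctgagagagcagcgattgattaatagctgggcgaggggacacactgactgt
Ier3, chr17:35821463-35821762, plus strand: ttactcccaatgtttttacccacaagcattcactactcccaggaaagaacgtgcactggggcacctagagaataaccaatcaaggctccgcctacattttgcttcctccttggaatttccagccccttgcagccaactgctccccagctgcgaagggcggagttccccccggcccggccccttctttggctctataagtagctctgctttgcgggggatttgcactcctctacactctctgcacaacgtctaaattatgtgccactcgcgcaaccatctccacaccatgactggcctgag
Each NR4A window held 4 matches to TGACG on either strand. They began at bases 18, 38, 182 and 211 in Nr4a1, at bases 51, 107, 128 and 140 in Nr4a2, and at bases 20, 38, 46 and 104 in Nr4a3. At least 1 match stood in 20.8% of all 32851 promoter windows of this length, and 4 or more stood in 0.231%. The full palindrome TGACGTCA, which contains the core on both strands and stood in 1.79% of windows, had no match in the windows of the 5 genes. The Egr2 window had 2 TGACG matches and 1 CArG box, at base 179, a motif found in 1.63% of windows. It belongs to 1 of 5 starts listed for Egr2, and 4 of these 5 windows had a CArG box. The windows that begin at 67537619, 67537620 and 67537680 overlap and hold the same box, so it is counted more than once. The window of Ier3, shown for its different layout, had no TGACG and no CArG box, but 1 NF-kappaB site at base 159 (4.51% of windows). Nr4a1 also had 1 NF-kappaB site, at base 248. GCGNGGGCG, the EGR site, had 1 match each in Nr4a1 and Nr4a2 and stood in 5.55% of windows. ACGTG, the core of the hypoxia response element, had 1 match each in the windows shown for Nr4a3 and Ier3 and 2 at another Egr2 start, and stood in 19.6% of windows. TATAAA had 1 match, in Nr4a2, against 13.6% of windows. AAAGGTCA (1.51% of windows) and TGANTCA (7.81%) had no match in the windows of the 5 genes. CACGTG, which contains ACGTG on both strands (7.15%), had 1 match, at another Egr2 start. A match is a run of letters and not a shown binding site.

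The plot of signals by array gives every probe set of the 10 genes.

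**Figure D1:**
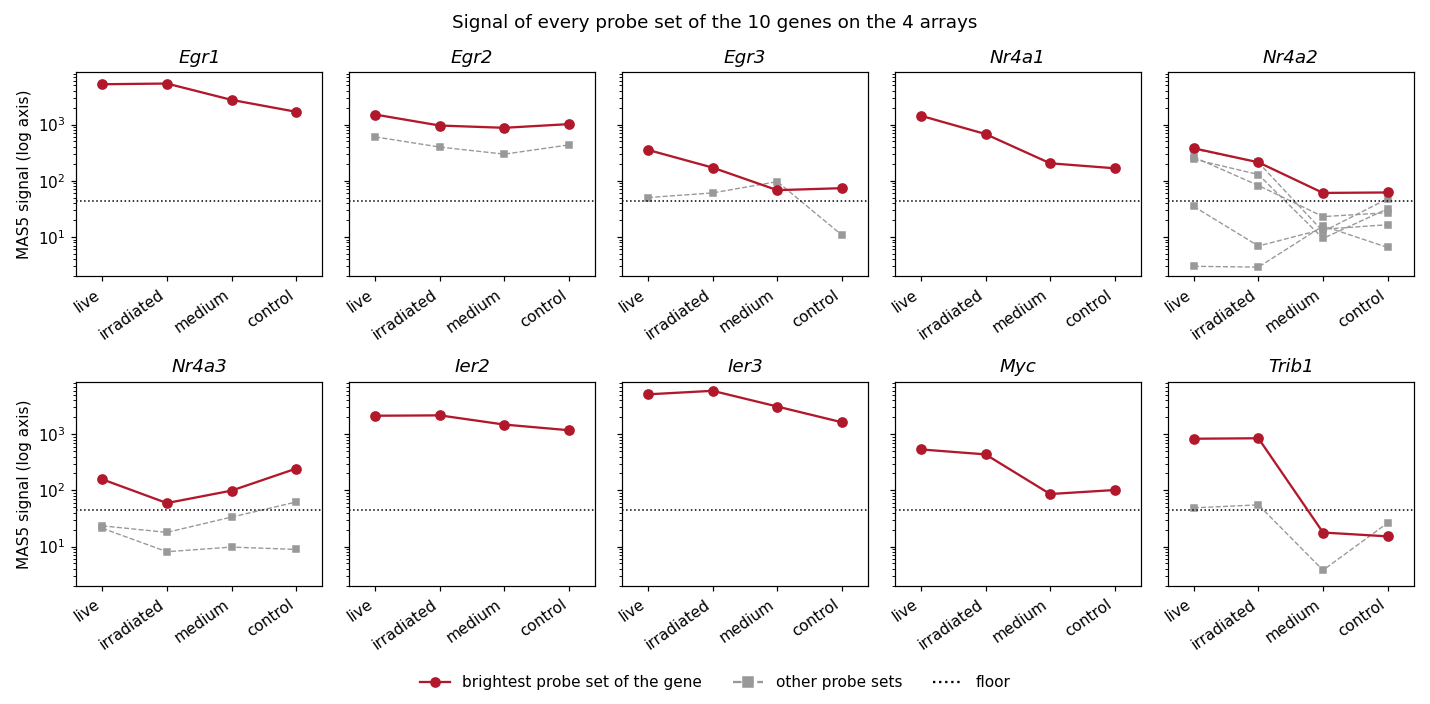
MAS5 signal (log axis) of each of the 20 probe sets on the live coculture, irradiated coculture, conditioned medium and control arrays, 1 panel per gene, with the brightest probe set in red, other probe sets in grey and the floor of 44.3 as a dotted line. Lines join the arrays of 1 probe set and imply no order. Trib1 was above the floor in the cocultures only, and 2 probe sets of Nr4a2 and 1 of Nr4a3 stayed under it on every array.

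Of the 20 probe sets, 17 were above the floor on at least 1 array and 10 on all 4. The probe set with the greatest mean log2 signal, called the brightest below, stood for its gene. Higher and lower in the counts mean a difference of at least 2-fold between signals that were first raised to the floor where they lay under it. In the live coculture 7 of the 10 genes exceeded the control and 0 were lower, against 3.36% higher and 2.23% lower among all 18193 genes. With irradiated 1D8 cells 7 were higher and 1 was lower, against 3.47% and 2.25%. With conditioned medium 0 were higher and 1 was lower, against 2.30% and 1.41%. The median log2 ratio of the 10 genes was 1.95, 1.72 and -0.02 in these comparisons, against a median of 0.00 over all genes in each. Because the genes were picked with these values known, nothing is read from the counts. The 3 comparisons share the control array, so its own variation enters all of them.

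**Figure D2:**
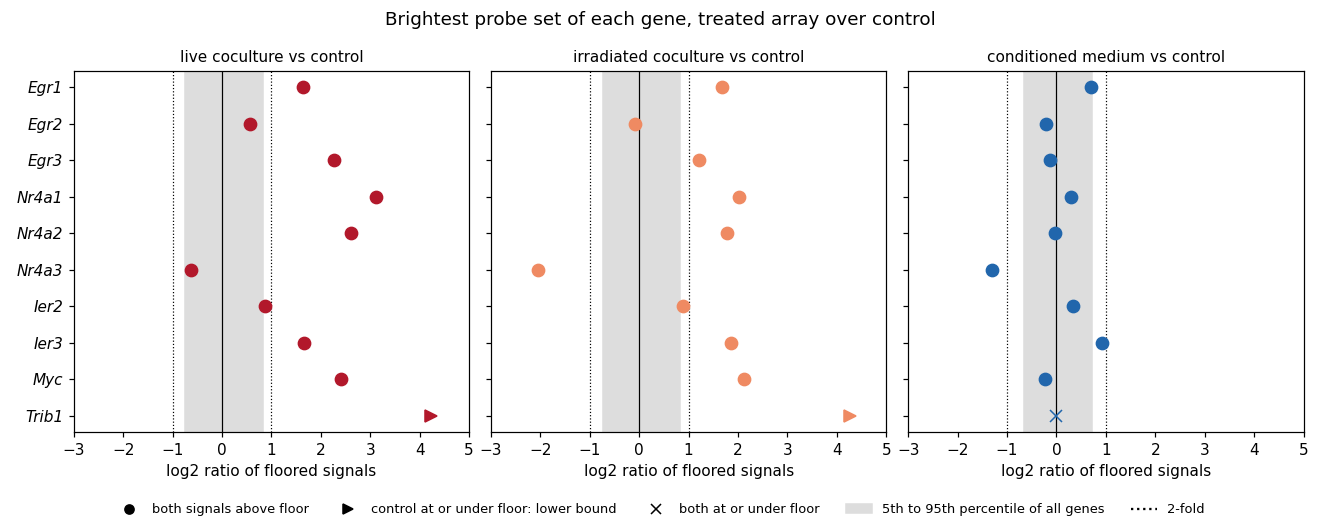
Log2 ratio of floored signals to the control for the brightest probe set of each gene, in 3 panels for the live coculture, the irradiated coculture and conditioned medium. Grey bands hold the 5th to 95th percentile of all 18193 genes, dotted lines mark 2-fold, triangles are lower bounds and the cross marks a gene with both signals under the floor. Trib1 lies farthest right in both coculture panels, and Nr4a3 lies left of 2-fold in the irradiated coculture and conditioned medium panels.

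Egr1, the best known member of its family, had 1 probe set, above the floor on all arrays. Its signal was 5220 with live 1D8 cells, 5372.5 with irradiated 1D8 cells and 2750.5 with conditioned medium, against 1687.6 in the control. The cocultures lay close together, 3.09-fold and 3.18-fold above the control, and conditioned medium lay in between, 1.63-fold above it. Egr2, which in myeloid cells is known as a regulator of differentiation, behaved differently. The brightest Egr2 probe set had signals of 1508.5 with live 1D8 cells, 960.8 with irradiated 1D8 cells and 875.9 with conditioned medium, against 1019.1 in the control. The other Egr2 probe set had 604.2, 397.8 and 297.6 on the treated arrays in the same order, against 435 in the control. Both probe sets were highest in the live coculture, by log2 ratios of 0.57 and 0.47, and no Egr2 ratio to the control reached 2-fold. For the irradiated coculture the Egr2 ratio was -0.08, and 0.02 after quantile normalization, so no direction is given.

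Egr3, a family member that is itself induced by Egr1 in several cell types, had 2 probe sets. Its brightest probe set had 353.8 with live 1D8 cells, 171.3 with irradiated 1D8 cells and 68 with conditioned medium, against 73.8 in the control. That is 4.79-fold and 2.32-fold higher in the cocultures, with conditioned medium beside the control. The other Egr3 probe set gave another order: 50.2 with live 1D8 cells, 60.7 with irradiated 1D8 cells and 96.5 with conditioned medium, against 10.8 in the control. At this probe set conditioned medium was the highest array, at least 2.18-fold above the control, and neither coculture differed 2-fold from it after the floor. The 2 probe sets of Egr3 therefore disagree on conditioned medium, while the coculture ratios of the dimmer one are lower bounds and its difference in size cannot be compared. Both are near the floor on several arrays. Nab1 and Nab2, the corepressors of EGR proteins, were within 2-fold of the control on all treated arrays. Nab2, itself a known EGR target, had signals of 431.2 with live 1D8 cells, 418.1 with irradiated 1D8 cells and 276.1 with conditioned medium, against 386.8 in the control. The fourth family member, Egr4, exceeded the floor in the live coculture only, with a signal of 49.5, against 35.6 in the control.

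Nr4a1, also called Nur77, which restrains inflammatory gene expression in mouse macrophages, had 1 probe set. Its signal was 1435.6 with live 1D8 cells, 678 with irradiated 1D8 cells and 204.5 with conditioned medium, against 166.7 in the control. The live coculture was 8.61-fold, the irradiated coculture 4.07-fold and conditioned medium 1.23-fold above the control. In the live coculture Nr4a1 ranked 20 from the top of 18193 genes by the ratio of floored signals.

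Nr4a2, also called Nurr1, had 6 probe sets, and they allow a check within the gene. The brightest had 378.5 with live 1D8 cells, 212.9 with irradiated 1D8 cells and 60.7 with conditioned medium, against 61.9 in the control. Probe set 1447863_s_at had 367.3, 211.7 and 12.5 on the treated arrays in that order, against 47.9 in the control. The remaining pair above the floor in the cocultures, 1450749_a_at and 1455034_at, had 241.4 and 264.4 with live 1D8 cells, 129.1 and 82.3 with irradiated 1D8 cells and 9.4 and 23 with conditioned medium, against 31.7 and 27 in the control. All 4 gave the same order, with the live coculture above the irradiated coculture and both above the other 2 arrays. In the live coculture their ratios to the control were 6.11-fold, 7.67-fold, at least 5.45-fold and at least 5.97-fold. With irradiated 1D8 cells they were 3.44-fold, 4.42-fold, at least 2.91-fold and at least 1.86-fold. The last 2 probe sets, 1433422_at and 1433423_at, were not above the floor on any array, with signals between 2.9 and 34.9, and give no ratio.

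Nr4a3, also called Nor1, was lower than in the control on the treated arrays, whereas Nr4a1 and Nr4a2 were higher in the cocultures. With conditioned medium Nr4a2 was not higher either, with 60.7 against 61.9 in the control at its brightest probe set. Its brightest probe set had 157.6 with live 1D8 cells, 59.5 with irradiated 1D8 cells and 99.1 with conditioned medium, against 244.4 in the control. The control was the highest array, with the irradiated coculture 4.11-fold, conditioned medium 2.47-fold and the live coculture 1.55-fold below it. A second probe set, 1421080_at, had 23.4, 17.9 and 33.5 on the treated arrays, against 62.1 in the control, so it too was highest in the control. Since all 3 treated signals were under the floor, its log2 ratio of -0.49 on each is a bound and the true difference may be larger. Its last probe set had signals of 8.1 to 21.2 and was not above the floor on any array. In the irradiated coculture Nr4a3 ranked 39 from the bottom of 18193 genes by its ratio of floored signals to the control.

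In mouse dendritic cells Nr4a3 is known to be needed for migration through the chemokine receptor CCR7. Ccr7, measured here as a dendritic cell marker, had signals of 131.6 with live 1D8 cells, 117.5 with irradiated 1D8 cells and 175.7 with conditioned medium, against 596.4 in the control. Like Nr4a3 it was highest in the control, 4.53-fold, 5.08-fold and 3.39-fold above the treated arrays. The order among the treated arrays differed, since Nr4a3 lay closest to the control in the live coculture and Ccr7 with conditioned medium. The retinoid X receptor genes Rxra and Rxrb, whose proteins pair with Nr4a1 and Nr4a2, stayed within 2-fold of the control when read by the brightest probe set, and Rxrg was not above the floor on any. The log2 ratios of Rxra there were 0.77 with live 1D8 cells, 0.56 with irradiated 1D8 cells and 0.59 with conditioned medium. Another Rxra probe set had signals of 204.7, 191.2 and 214.7 on these arrays, against 381.6 in the control, so no direction is given.

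Ier2, a small nuclear protein gene of the first minutes after stimulation, was close to the 2-fold line. It had 2132.6 with live 1D8 cells, 2165.5 with irradiated 1D8 cells and 1484.1 with conditioned medium, against 1176.7 in the control. The cocultures were 1.81-fold and 1.84-fold above the control, under the 2-fold line, and quantile normalization moved the log2 ratio of the live coculture over it, to 1.03. Ier3, also called IEX-1, a regulator of survival and stress signalling that is a known NF-kappaB target, differed more. Its signal was 5129.8 with live 1D8 cells, 5923 with irradiated 1D8 cells and 3110.9 with conditioned medium, against 1631.5 in the control. All treated arrays lay above the control, by 3.14-fold, 3.63-fold and 1.91-fold. Quantile normalization gave conditioned medium a log2 ratio of 1.10 for Ier3, past 2-fold. Ier3, Egr1 and Ier2 thus shared an order in which the cocultures were highest and nearly equal, conditioned medium came next and the control was lowest.

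Myc separated the cocultures from the other 2 arrays. Its signal was 536 with live 1D8 cells, 437.7 with irradiated 1D8 cells and 86.2 with conditioned medium, against 101.6 in the control. The cocultures were 5.28-fold and 4.31-fold above the control, while conditioned medium was 1.18-fold below it. Max, the obligate partner of MYC, had signals of 54.7, 62.6 and 53.6 on the treated arrays in that order, against 64.3 in the control. Among the MYC antagonists, Mxi1 was higher in both cocultures, by 2.56-fold and 3.23-fold, with 1187.3 in the live and 1494.3 in the irradiated coculture, against 463.2 in the control. Mxd4 had 73.5 in the live coculture, against 175.9 in the control (2.39-fold lower), while 2 of its other probe sets had log2 ratios of -1.20 and -0.08. Mycn was not above the floor on any array.

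Genes listed as MYC targets were mixed. Of 24 such genes, all with a probe set, 5 were at least 2-fold above the control and 0 below it in the live coculture, with a median log2 ratio of 0.00. For irradiated 1D8 cells the counts were 3 and 2, with a median of -0.27. With conditioned medium 1 was higher and 3 lower (median -0.43). Over all genes the median was 0.00 in each comparison. The shares of all genes were 3.36% higher and 2.23% lower, 3.47% and 2.25%, and 2.30% and 1.41%, in the same order. Among the 24, Rrp12 and Rrp9 were not above the floor on any array. The higher genes in each coculture include Cdkn1a, which MYC is known to repress and which is also listed as an EGR target. Ccnd2, a G1 cyclin gene, had 1549.5 with live 1D8 cells, 1395.6 with irradiated 1D8 cells and 470 with conditioned medium, against 185.1 in the control. It was higher on every treated array, by 8.37-fold, 7.54-fold and 2.54-fold. Odc1, the first enzyme of polyamine synthesis, had 1499.7 with live 1D8 cells, 1478 with irradiated 1D8 cells and 586.2 with conditioned medium, against 623.3 in the control. It was 2.41-fold and 2.37-fold higher in the cocultures, and its other 2 probe sets gave log2 ratios of 1.36 and 1.37 in the live coculture. Eif4e, the cap-binding translation factor gene, was 2.21-fold higher in the live coculture, with 1428.2 against 644.9 in the control. Nop58, which serves ribosomal RNA modification, was 2.13-fold higher in the live coculture alone, with 122 against 57.3 in the control. The nucleolar genes Ncl, Npm1 and Fbl lay within 2-fold of the control on every treated array, and Gnl3 and Srm, a nucleolar GTPase and spermidine synthase, were 2.43-fold and 2.41-fold lower with conditioned medium. Tfrc, the transferrin receptor gene, was 2.15-fold lower in the irradiated coculture and 2.64-fold lower with conditioned medium when read by the brightest of its probe sets. A dimmer Tfrc probe set had log2 ratios of 0.38 and 0.25 there, in the other direction. Pa2g4, a growth-linked RNA-binding protein gene, was 2.10-fold lower in the irradiated coculture, while the log2 ratios at 3 further probe sets were -1.13, -0.10 and -0.24.

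Trib1 showed the sharpest contrast of the 10 genes. Its brightest probe set had 831.5 with live 1D8 cells, 847.2 with irradiated 1D8 cells and 17.8 with conditioned medium, against 15.2 in the control. The cocultures were nearly equal and the other 2 arrays were under the floor, so the cocultures were at least 18.8-fold and at least 19.1-fold above the control. The other Trib1 probe set, 1424881_at, had 48.9 with live 1D8 cells, 55.3 with irradiated 1D8 cells and 3.8 with conditioned medium, against 26.4 in the control. It too exceeded the floor in the cocultures only, but so little that its ratios are at least 1.10-fold and at least 1.25-fold. Its family member Trib2 was not above the floor on any array, and Trib3, a stress-induced relative, stayed within 2-fold of the control.

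COP1 and C/EBPα are the known partners of TRIB1 in the turnover of myeloid transcription factors. Cop1 had 752.5 with live 1D8 cells, 750.6 with irradiated 1D8 cells and 1017.8 with conditioned medium, against 942.4 in the control, within 2-fold on each array. Cebpa had 858.4, 827.8 and 1277.1 on the treated arrays in that order, against 2082.2 in the control. Cebpa transcript was thus lowest on the arrays where Trib1 was above the floor, 2.43-fold and 2.52-fold below the control, and 1.63-fold below it with conditioned medium. Arrays measure RNA, and the turnover of C/EBPα protein was not measured. Cebpb, its relative induced in inflammation, had log2 ratios of 0.29, 0.60 and 0.12 at its brightest probe set and of 1.19, 1.55 and 0.59 at the other.

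The irradiated and live cocultures differed in whether the 1D8 cells had been irradiated. In the irradiated coculture 0 of the 10 genes were higher than in the live coculture and 3 were lower, against 0.302% higher and 0.368% lower among all genes, and the median log2 ratio of the 10 was -0.47. The 3 were Nr4a3, with 59.5 in the irradiated and 157.6 in the live coculture (2.65-fold lower), Nr4a1, with 678 and 1435.6 (2.12-fold lower), and Egr3, with 171.3 and 353.8 (2.07-fold lower). Nr4a2, read by its brightest probe set, was 1.78-fold lower, and its other 3 probe sets above the floor on both arrays had log2 ratios of -0.79, -0.90 and -1.68. Both Egr2 probe sets were lower, with log2 ratios of -0.65 and -0.60. The dimmer Egr3 probe set was slightly higher instead, at a log2 ratio of 0.27. All 3 NR4A genes, and Egr2 and Egr3 at their brightest probe sets, were thus lower in the irradiated coculture, while Egr1, Ier2, Ier3 and Trib1 had log2 ratios between 0.02 and 0.21 and Myc had -0.29. Quantile normalization turned Egr1 to -0.13 and Ier2 to -0.07, so these 2 have no direction. None of the 36 other immediate early genes differed 2-fold in either direction between these arrays, and their median log2 ratio was 0.11. Closest to 2-fold were Sik1, a salt-inducible kinase gene, with 233.9 in the irradiated and 117.2 in the live coculture, and Maff, a small MAF factor gene, with 108.2 and 205.9.

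**Figure D3:**
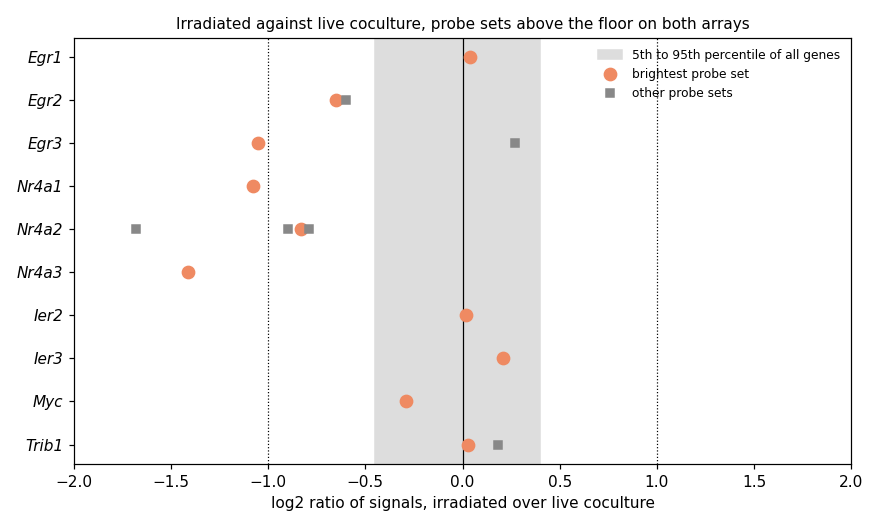
Log2 ratio of signals, irradiated over live coculture, for the probe sets above the floor on both arrays, with the brightest probe set of each gene as a circle and others as squares. The grey band is the 5th to 95th percentile of all genes (-0.45 to 0.40) and dotted lines mark 2-fold. The 3 NR4A genes and Egr2 lie left of the band at all plotted probe sets, and the 2 probe sets of Egr3 lie on opposite sides of 0.

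The cocultures were also set against conditioned medium, the sample that received 1D8 supernatant. In the live coculture 5 of the 10 genes were higher than with conditioned medium and 0 lower, against 1.75% and 1.14% of all genes, with a median log2 ratio of 1.65. With irradiated 1D8 cells 5 were again higher and 0 lower, against 1.95% and 1.24%, and the median was 1.15. These were Egr3, Nr4a1, Nr4a2, Myc and Trib1 in both. Trib1 was at least 18.8-fold higher in the live coculture than with conditioned medium. Nr4a1 was 7.02-fold, Nr4a2 6.24-fold, Myc 6.22-fold and Egr3 5.20-fold higher in the live coculture. Egr1 was just under 2-fold in both, at 1.90-fold and 1.95-fold, and Ier3 was at 1.65-fold and 1.90-fold. Egr2 was 1.72-fold and 1.10-fold higher at its brightest probe set and 2.03-fold and 1.34-fold higher at the other, which passed 2-fold in the live coculture. The other Egr3 probe set was lower in both cocultures than with conditioned medium, with log2 ratios of -0.94 and -0.67.

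Other immediate early genes were examined as a group of 36, listed with earlier results of these data known. They comprise AP-1 subunits, Krüppel-like factors, MAP kinase phosphatases and similar fast-response genes, and 35 of them were above the floor on at least 1 array. In the live coculture 13 were at least 2-fold above the control and 0 below it, with a median log2 ratio of 0.78, beside 3.36% and 2.23% of all genes. With irradiated 1D8 cells 17 were higher and 2 lower (median 0.80), beside 3.47% and 2.25%. With conditioned medium 2 were higher and 4 lower (median -0.01), beside 2.30% and 1.41%.

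**Figure D4:**
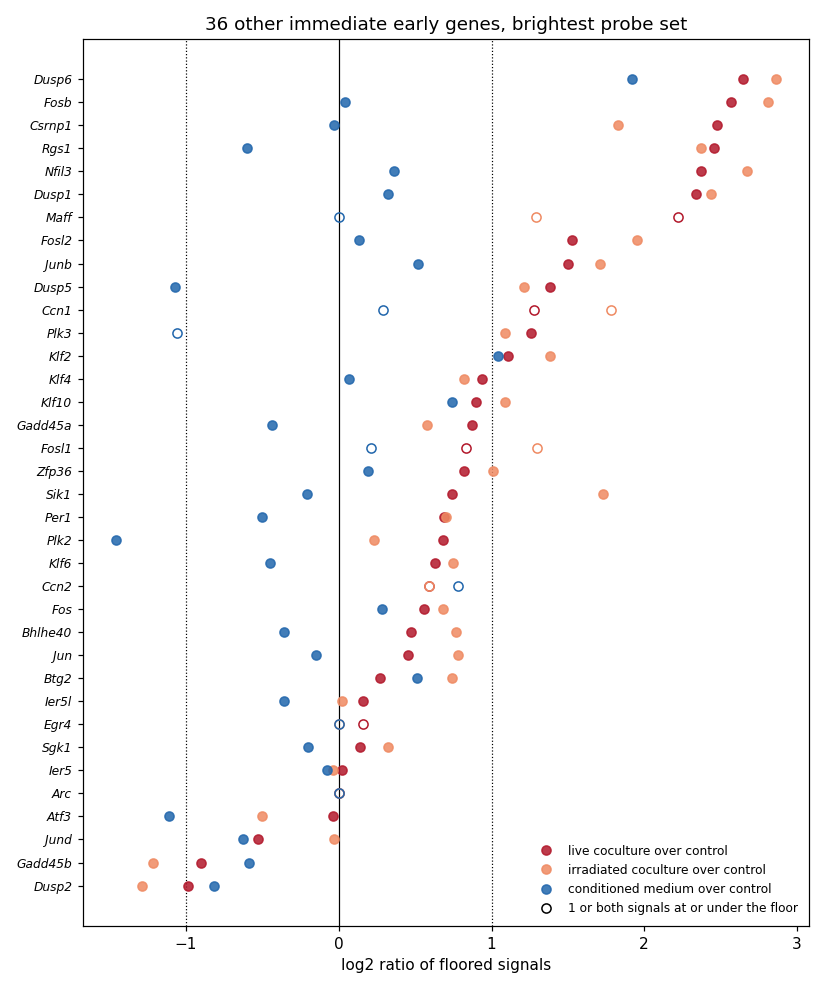
Log2 ratio of floored signals to the control for 36 other immediate early genes at their brightest probe sets, for the live coculture (dark red), the irradiated coculture (orange) and conditioned medium (blue), ordered by the live coculture. Open circles have 1 or both signals at or under the floor and dotted lines mark 2-fold. Dusp6 is the top gene of the plot and lies right of 2-fold on all treated arrays.

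Dusp6, a phosphatase that switches ERK off and is induced by ERK activity, had 2348.3 with live 1D8 cells, 2717.5 with irradiated 1D8 cells and 1419 with conditioned medium, against 374.4 in the control. It was higher on all treated arrays, by 6.27-fold, 7.26-fold and 3.79-fold. Fosb, an AP-1 subunit gene, had 1544.2, 1826.4 and 267.1 on these arrays, against 259.8 in the control, and so was higher in the cocultures alone. Rgs1, a brake on chemokine receptor signalling, had 5432.3, 5113.3 and 652.2, against 989.5 in the control. Rgs1 was 5.49-fold and 5.17-fold higher in the cocultures and 1.52-fold lower with conditioned medium. Csrnp1, a nuclear protein gene induced by AXIN1, was 5.58-fold and 3.55-fold higher in the cocultures. Nfil3, a bZIP transcription factor gene, was 5.17-fold higher in the live and 6.37-fold higher in the irradiated coculture. Dusp1, a phosphatase of p38 and JNK, was 5.05-fold and 5.42-fold higher in the same order. The AP-1 gene Fos, by contrast, was bright everywhere, with 6379.3 with live 1D8 cells, 6974.8 with irradiated 1D8 cells and 5251.4 with conditioned medium, against 4340 in the control. Jun had log2 ratios of 0.45, 0.78 and -0.15 at its brightest probe set, while the other had signals of 303.6, 377.6 and 243.4, against 488.3 in the control, and so was lower. Klf2, a Krüppel-like factor gene, was the other gene counted as higher with conditioned medium, by 2.06-fold. With conditioned medium Plk2, a stress-induced kinase gene, was 2.76-fold lower, Atf3 2.16-fold lower and Dusp5, another ERK phosphatase gene, 2.09-fold lower. Dusp5 was 2.60-fold and 2.32-fold higher in the cocultures, so its direction differed between cocultures and conditioned medium.

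Genes that act upstream of the 10 were counted in the same way, and the same shares of all genes apply. Of 25 upstream kinases and transcription factors 20 were assigned to a probe set of 1 gene, and 3 were higher and 0 lower in the live coculture, 3 higher and 1 lower in the irradiated coculture and 1 higher and 0 lower with conditioned medium. Their median log2 ratios were -0.11, 0.01 and -0.06. Srf had 258.3, 259.3 and 229.6 on the treated arrays, against 235.1 in the control, and Creb1 had 393.6, 427 and 453, against 479.2. Crem, a relative of CREB that includes the inducible repressor ICER, had 262.2 with live 1D8 cells, 340.4 with irradiated 1D8 cells and 93.8 with conditioned medium, against 102.6 in the control. It was 2.56-fold and 3.32-fold higher in the cocultures, and another of its probe sets had log2 ratios of 0.73 and 0.84. Elk3, an SRF partner, was 2.16-fold and 2.27-fold higher. Rps6ka5, a kinase gene of the CREB pathway, was at least 2.41-fold, at least 2.04-fold and at least 3.19-fold higher on the treated arrays at its brightest probe set. Another Rps6ka5 probe set, above the floor on every array, stayed under 2-fold, with log2 ratios of 0.65, 0.50 and 0.82. The remaining one, under the floor in the control, had 0.33, 0 and 0.51. Map2k2 was 2.01-fold lower in the irradiated coculture, with 266.2 against 534.3 in the control. Its other probe set had 130.8 against 188.7 there, a log2 ratio of -0.53, under 2-fold. Among 22 measured partners and corepressors of the 10 genes, 1 was higher and 2 lower in the live coculture, 1 higher and 1 lower in the irradiated coculture and 0 in either direction with conditioned medium, with medians of -0.15, -0.02 and 0.00. Of 15 measured genes listed as targets of EGR or NR4A proteins, 2 were higher and 0 lower in the live coculture, 2 higher and 1 lower in the irradiated coculture and 1 higher and 0 lower with conditioned medium, with medians of 0.08, 0.33 and 0.00. Ndrg1, also a known hypoxia-induced gene, was 4.18-fold, 4.66-fold and 2.21-fold higher on the treated arrays. Cdkn1a, the p21 inhibitor of the cell cycle, was 2.07-fold and 2.06-fold higher in the cocultures, and Gadd45b was 2.34-fold lower in the irradiated coculture.

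The gene with the most similar pattern was sought for each member, as the smallest Euclidean distance between the 3 log2 ratios to the control over 11758 candidate genes. Likeness over 3 ratios from 4 arrays is a description, and the ratios share the control array. For Nr4a2 it was Csrnp1 (distance 0.14) and for Egr3 it was Maff (0.15), both among the 36 other immediate early genes. Egr1 was nearest to Asph (0.04), Ier2 to Klhl6 (0.04), Ier3 to Thbs1 (0.03) and Egr2 to Alg12 (0.10). The distances were larger for Nr4a1, with Cass4 at 0.46, and for Nr4a3, with Gdpd5 at 0.64. For Myc the nearest gene was Upk3b (0.27), a uroplakin of mesothelium, and for Trib1 it was Tm4sf1 (0.52), a tetraspanin-like membrane protein gene, followed by Hilpda (0.53), a hypoxia-induced lipid droplet gene, and the keratin gene Krt19 (0.56). Ratios to the control of Trib1, Tm4sf1, Krt19, Upk3b and Maff, and that of Gdpd5 in the irradiated coculture, are bounds set by the floor. The distances that include these genes are limited by it too.

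Cell type markers varied as well. Of the 10 dendritic cell markers, 1 was at least 2-fold higher and 4 lower in the live coculture than in control BMDC, 2 higher and 3 lower with irradiated 1D8 cells and 1 in each direction with conditioned medium. Of 6 monocyte and macrophage markers, 1 was higher in each coculture and 0 with conditioned medium. Among all genes, 3.36%, 3.47% and 2.30% were higher and 2.23%, 2.25% and 1.41% lower on the live coculture, irradiated coculture and conditioned medium arrays. Of 15 epithelial and mesothelial markers, 11 were above the floor with live 1D8 cells, 12 with irradiated 1D8 cells and 5 with conditioned medium, against 3 in the control. Their summed signal was 3008.1, 3670.3 and 852.1 on the treated arrays in that order, against 493 in the control. Of the defining markers, Krt19 had 569.7 with live 1D8 cells, 767.4 with irradiated 1D8 cells and 22.2 with conditioned medium, against 8.6 in the control. Epcam had 107.2, 239 and 168.5, against 103.8 in the control, so it was above the floor there as well, while its other probe set was under the floor on every array. RNA of 1D8 cells in the sorted cocultures and RNA of BMDC cannot be told apart for any of the 10 genes, and 1D8 RNA by itself was not analysed here. Trib1 had the same signal on both coculture arrays to within 1.02-fold, while the summed epithelial signal was higher in the irradiated coculture. Nr4a1, Nr4a2 and Egr3 at their brightest probe sets were lower in the irradiated coculture, and Ier3 was higher, with 5923 against 5129.8 in the live coculture. Markers within the sum went both ways. Krt19 was higher in the irradiated coculture, while Upk3b, with 207.9 against 237, and Lgals7, with 55.6 against 71.3, were lower. The sum includes Cdh1, with 930.5 in the live and 1102.2 in the irradiated coculture, against 189.5 in the control. Which cells the RNA of these genes came from was not tested. Of 11 fibroblast and mesenchymal markers, 2 were at least 2-fold higher with live 1D8 cells, 3 with irradiated 1D8 cells and 0 with conditioned medium. Summed neutrophil and mast cell markers were lower on all treated arrays. The 7 measured neutrophil markers summed to 810.1, 995.4 and 838.5, against 1939.7 in the control. For 5 mast cell and basophil markers the sums were 171.6, 260.9 and 670.4, against 1208.7 in the control, with the defining marker Mcpt8 under the floor in both cocultures. Not every marker was highest in the control, since Kit had 101.1 in the irradiated coculture, against 98.5 in the control. In bulk RNA, fewer cells of a type and less RNA per cell cannot be told apart, for Nr4a3 as well. Nr4a3 was highest in the control, as both sums were. Among the treated arrays it was highest in the live coculture, with 157.6, where both sums were lowest. The part of any of these markers in the results was not tested.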

How the data were processed

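The members and lists were chosen with earlier results of these data known. Per the submitters' processing notes, GCOS 1.4 and MAS5 were used by the authors, and the deposited values are 1 linear signal intensity per probe set, from RNA amplified in 1 oligo-dT round per the labels' protocols. The scaling target, detection calls and genome build are not given in the sources used here. After 64 control probe sets were left out of 45101, 34945 probe sets were assigned to 1 gene by GEO's platform annotation, 932 to several and 9160 to none, and only the first were used.

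Signals were raised to the floor of 44.3 before log2 ratios were taken, in Python 3.11.15 with pandas 2.3.3 and numpy 2.4.6. With 1 array per condition there was no replicate and no test, and precision is limited by the number of arrays. The dimmer of 2 signals at or under the floor makes a ratio a lower bound ("at least").

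Named genes are all members, up to 4 genes per list and comparison past 2-fold and the nearest gene in pattern of each member. Markers, partners and genes at 2-fold or less were named after their values were seen. The ratio and count steps were tested on simulated data. Alternatives were floors at 12.9 (25th percentile) and 155.6 (75th percentile), quantile normalization, median centring, the mean over probe sets, every other probe set and a 3-fold threshold. Promoter sequences are from RefSeq, GRCm38.p6. Proteins were not used here.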

Additional observations from a re-analysis of the deposited data

How the results depend on the processing

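No paired analysis was possible because each condition has 1 array, and no replicate could be left out. Egr3 at probe set 1421486_at went against its brightest probe set, with log2 ratios of 0.27 for the irradiated against the live coculture, -0.94 for the live coculture against conditioned medium, -0.67 for the irradiated coculture against conditioned medium and 1.12 for conditioned medium against the control. The last was 0.50 with the mean over probe sets, against -0.12. Quantile normalization changed the sign of 3 small ratios, to 0.02 for Egr2 in the irradiated coculture against the control, and to -0.13 for Egr1 and -0.07 for Ier2 in the irradiated against the live coculture. No gene crossed 2-fold with the floor at the 25th percentile. Quantile normalization and median centring each took 2 ratios across 2-fold, and the floor at the 75th percentile and the mean over probe sets, settings in which more signals are held at the floor, took 7 each. The counts of 7 higher genes in each coculture against the control stayed within 1.5 times under the 6 alternatives run. For the irradiated coculture the count fell to 5 with the floor at the 75th percentile. There the log2 ratio of Egr3 was 0.14 and that of Nr4a2 was 0.45. It was 6 with the mean over probe sets, where Egr3 had 0.83, and 6 at 3-fold. The count of lower genes, which was 1 (Nr4a3) for the irradiated coculture and for conditioned medium, became 0 in both with the floor at the 75th percentile and with the mean over probe sets, and 0 for conditioned medium at 3-fold. The higher floor raises the treated signals of Nr4a3, and the mean takes in its dim probe sets. Quantile normalization raised the count of higher genes with conditioned medium to 1 (Ier3), against 0. For the irradiated against the live coculture the 3 lower genes became 1 with the mean over probe sets and 0 at 3-fold. For the irradiated coculture against conditioned medium the 5 higher genes became 3 with the floor at the 75th percentile, which raises the dim signals of Egr3 and Nr4a2. For all genes in the live coculture against the control, the 612 higher and 406 lower genes became 479 and 482 with quantile normalization, and centring on the median made them 490 and 559 and moved the median over genes above the floor on all arrays to -0.17. The 25th percentile floor gave 1463 and 782, the 75th percentile floor 270 and 243, the mean over probe sets 483 and 251, and the 3-fold threshold 194 and 77. Dim probe sets limit the ratios of Egr3, Nr4a2, Nr4a3 and Trib1.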
